A study of Mus musculus with 12 samples.

Results

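The scars of Tem1lacZ/lacZ mice were compared with those of Tem1WT/WT mice after both had been put under traction, across every gene expressed in them. The comparison rests on 6 of the 12 RNA-seq libraries of the study, 3 labelled lacZTR and 3 labelled WTTR, which were picked by their genotype and treatment labels alone. The other 6 libraries (3 lacZSH and 3 WTSH) come from sham scars of the same genotypes and are used here for the spread between libraries and for the same genotype difference without traction. In Tem1lacZ/lacZ mice a lacZ reporter takes the place of the only exon of Tem1, in a line backcrossed to C57BL/6J, so that the gene is missing from every cell type and at every age, not only from the fibroblasts of the scar. Tem1WT/WT mice carry both intact alleles. All scars grew from a 1.5-cm wound in the back skin of male mice aged 8 to 12 weeks, and a device was fixed over the wound on day 6. In the traction groups the device was lengthened by 1 mm each day up to 8 mm in all, while sham mice wore a device of fixed length. A replicate is written here by its group and number, as WTTR_1.

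TEM1, also named endosialin or CD248, is a transmembrane glycoprotein with a C-type lectin-like domain that is found on fibroblasts, pericytes and other stromal cells, and binds proteins of the extracellular matrix. Mechanical tension on a healing wound is known to keep fibroblasts active: they sense it through integrins and focal adhesions, respond to TGF-β, and lay down collagens that have to be hydroxylated, folded and cross-linked before they bear load. A wound also draws in neutrophils and monocytes through chemokines, grows new vessels, and has to rebuild its epidermis and hair follicles. The genes were therefore read by these roles.

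The 6 traction libraries held between 42449173 and 54227680 counts each. Of 35976 genes listed, 28591 had a count in some library and 18853 passed edgeR's filter on low counts and were tested. Levels are given as CPM after TMM normalization, and differences as log2 fold changes of Tem1lacZ/lacZ minus Tem1WT/WT from edgeR's quasi-likelihood fit. Their standard errors (SE) were worked back from the test, as the size of the log2 fold change over the square root of its F statistic. A gene is said to have risen or fallen where its Benjamini-Hochberg adjusted p over all genes tested was under 0.05, and to be nominally lower or higher where only its unadjusted p was. The p-values measure the spread between these libraries. The tissue label was checked against marker genes. In each traction library the summed level of 21 fibroblast genes, collagens among them, was at least 33420 CPM. That of 21 epidermal genes was at least 19009 CPM. WTTR_1 stood apart from the rest: over the 500 most variable genes its distance to each of the other 5 traction libraries was between 3.22 and 3.84 (root mean square, log2), whereas the other pairs were between 1.71 and 2.78 apart. It held the highest level of inflammatory genes, so results that rest on it are given with and without it. Because whole scars were sequenced, fewer cells of a type and less RNA per cell cannot be told apart.

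Cd248, the gene of TEM1, was close to absent from the lacZTR libraries. Its exon lies on the plus strand of chromosome 19 (GRCm38, GENCODE vM21) from 5068078 to 5070682, with the coding part from 5068126 to 5070420. It was counted 3883, 8903 and 16413 times in WTTR_1 to WTTR_3 (92.4, 197 and 337 CPM) and 0, 13 and 6 times in lacZTR_1 to lacZTR_3 (0, 0.248 and 0.113 CPM). The groups were far apart, and the fall (log2 fold change -10.65 ± 0.79, adjusted p = 0.000755) was the largest difference of all genes tested. The WTTR libraries differed among themselves by more than any 2 of the sham libraries of the same genotype, which lay at 119, 138 and 193 CPM.

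The genotypes differed in 20 of the 18853 genes (0.106%), of which 18 fell and 2 rose in lacZTR. The libraries of the 2 groups did not overlap for any of the 20. Without WTTR_1, 14 genes were past the threshold, and 9 of the 20 no longer were, namely Cxcl1, Fosl1, Tmem252, Gm15230, P4ha1, Gpc1, Rest, Stac2 and Vwa1, with adjusted p from 0.051 to 0.124 and the same signs. Leaving out lacZTR_1 gave 4 genes, lacZTR_2 or lacZTR_3 gave 3, and WTTR_2 gave 1421. Below the threshold the difference was broad: 2843 genes (15.1%) were lower and 2087 (11.1%) were higher at an unadjusted p under 0.05, and 2584 genes (13.7%) were lower and 2423 (12.9%) higher in lacZTR with no overlap between the 6 libraries. The median log2 fold change of all genes was 0.01 and the quartiles were -0.37 and 0.43, with the centre set by TMM normalization, and with upper quartile normalization the median was 0.144. At a wider adjusted p of 0.1 there were 1386 genes, 897 of them lower. Without WTTR_1, 10.3% of the 19388 genes then tested were nominally lower and 10.1% nominally higher, with a median of 0.07, so the excess of lower genes was not seen without that library. These percentages are the background for the counts that follow.

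**Figure D1:**
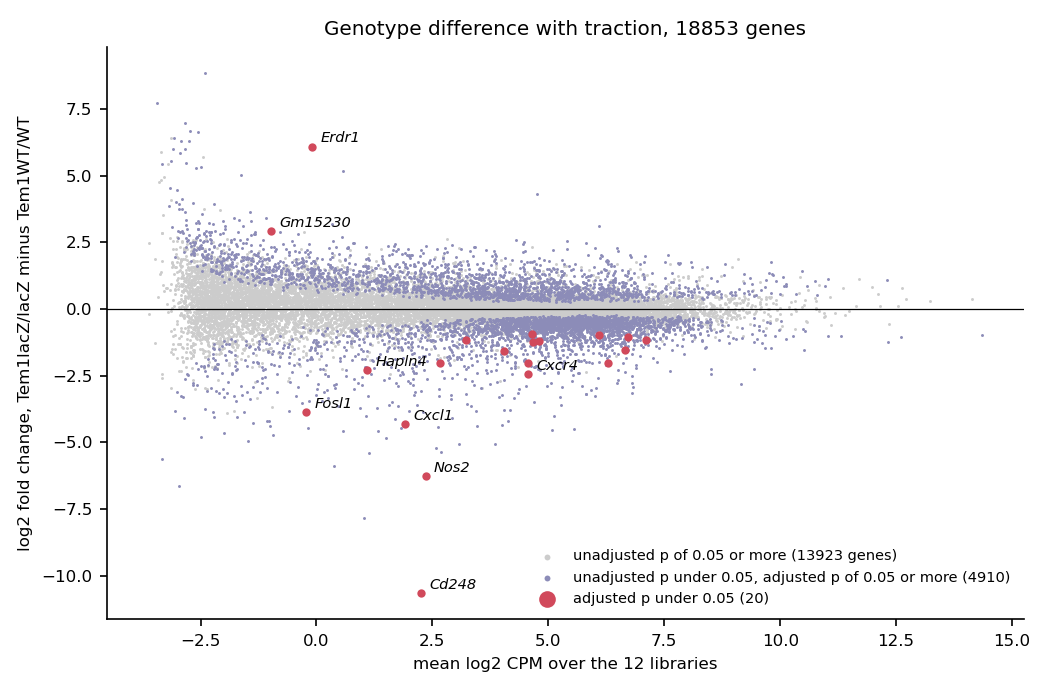
Log2 fold change between Tem1lacZ/lacZ and Tem1WT/WT scars with traction (vertical axis) against the mean log2 CPM over the 12 libraries (horizontal axis), 1 point a gene. The 20 genes with an adjusted p under 0.05 are in red, and Cd248 at -10.65 and Erdr1 at 6.09 are the extremes among them.

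After Cd248 the steepest falls were those of Nos2, Cxcl1 and the AP-1 gene Fosl1, followed by Cxcr4, and 3 of these 4 act in inflammation. Nos2 (chromosome 11, 78920787 to 78960226), the inducible nitric oxide synthase of activated macrophages and neutrophils, was at 391, 86.8 and 66.8 CPM in WTTR and at 1.85, 3.64 and 1.51 CPM in lacZTR (log2 fold change -6.28 ± 0.77, adjusted p = 0.0136). The lacZTR values were close to those of the sham scars, which lay between 1.09 and 3.11 CPM over both genotypes. Cxcl1 (chromosome 5, 90891245 to 90893121), a chemokine that attracts neutrophils through CXCR2, was at 66.4, 37.6 and 15.8 CPM in WTTR and at 2.17, 2.54 and 1.38 CPM in lacZTR (-4.30 ± 0.62, adjusted p = 0.0335). Cxcr4 (chromosome 1, 128588199 to 128592299), the receptor by which leukocytes and progenitor cells follow CXCL12, was at 125, 97.4 and 44.1 CPM in WTTR and at 15.6, 15.2 and 18.4 CPM in lacZTR (-2.44 ± 0.33, adjusted p = 0.0257). In all 3 genes WTTR_1 was the highest library and the lacZTR libraries lay close together. Without WTTR_1, Nos2 was still called with a log2 fold change of -5.01, and Cxcl1 was at -3.70 with an adjusted p of 0.051.

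Transcription factors and feedback regulators formed another group. Per1 (chromosome 11, 69095108 to 69109965), a repressor of the circadian clock that glucocorticoids and cAMP also induce, was at 226, 140.4 and 154 CPM in WTTR and at 42.8, 37.9 and 47.5 CPM in lacZTR (-2.02 ± 0.18, adjusted p = 0.00257). Errfi1, a feedback inhibitor of the EGF receptor, was at 132, 175 and 178 CPM in WTTR and at 60.4, 50.1 and 54.9 CPM in lacZTR (-1.55 ± 0.16, adjusted p = 0.0054). Per1 and Errfi1 were tight in lacZTR and more spread in WTTR, with WTTR at least 2-fold above lacZTR library by library. Fosl1 (chromosome 19, 5447698 to 5455938), the AP-1 subunit FRA-1 that is induced by growth factors and stretch, was at 8.42, 3.14 and 3.29 CPM in WTTR and at 0.468, 0.248 and 0.302 CPM in lacZTR (-3.87 ± 0.56, adjusted p = 0.0335). It was counted between 13 and 19 times in each lacZTR library and between 142 and 354 times in each WTTR library. Rest, a repressor of neuronal genes, was at 60.3, 46.7 and 49.5 CPM in WTTR and at 16.8, 26.9 and 24.9 CPM in lacZTR (-1.19 ± 0.18, adjusted p = 0.0392). WTTR_1 was the highest library for Per1, Fosl1 and Rest, and without it the adjusted p was 0.051 for Fosl1 and 0.124 for Rest.

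The stretch of 250 bases before the start was available in RefSeq (GRCm38.p6) for 9 of the 20 genes, in 12 windows. It is printed for Cxcl1, Cxcr4 and Per1, the chemokine, the chemokine receptor and the clock gene among those 9. Letters were searched on both strands for an NF-κB-type site (GGG, any 5 bases, then CC), an AP-1 site (TGANTCA), a cAMP response element (TGACGTCA) and an E-box (CACGTG), and matches are in capitals. Sequences read 5′ to 3′ on the strand of the gene, at chr5:90890995-90891244 (plus), chr1:128592300-128592549 (minus) and chr11:69098699-69098948 (plus, 1 of 2 windows of Per1). Both windows of Per1 lie within the span given for the gene above, so they precede starts inside it and not its first base.
Cxcl1: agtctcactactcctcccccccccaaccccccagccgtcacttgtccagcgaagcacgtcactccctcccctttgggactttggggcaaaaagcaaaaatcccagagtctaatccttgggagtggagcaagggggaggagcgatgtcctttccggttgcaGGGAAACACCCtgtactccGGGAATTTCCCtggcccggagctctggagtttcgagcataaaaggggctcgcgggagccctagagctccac
Cxcr4: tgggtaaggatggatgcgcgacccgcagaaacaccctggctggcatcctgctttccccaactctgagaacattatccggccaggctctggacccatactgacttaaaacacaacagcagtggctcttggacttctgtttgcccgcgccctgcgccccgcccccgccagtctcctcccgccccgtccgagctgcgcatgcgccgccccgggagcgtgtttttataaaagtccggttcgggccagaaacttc
Per1: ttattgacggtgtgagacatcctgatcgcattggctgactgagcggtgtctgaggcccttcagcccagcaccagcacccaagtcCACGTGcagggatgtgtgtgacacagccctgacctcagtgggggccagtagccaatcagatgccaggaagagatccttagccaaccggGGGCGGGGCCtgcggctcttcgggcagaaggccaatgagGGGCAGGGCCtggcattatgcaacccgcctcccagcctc
The window of Cxcl1 holds 2 places with the NF-κB letters, 90 and 71 bases before the start, each read on both strands as 2 overlapping matches. The Per1 window holds an E-box 166 bases before the start and NF-κB letters at 78 and 39 bases, and the Cxcr4 window holds no match to any of the 4 motifs. Of all 32841 windows, 45.8% hold the NF-κB letters, 6.75% the AP-1 letters, 1.55% the cAMP response element and 6.02% the E-box. Of the 12 windows of genes that differed, 9 hold the NF-κB letters, 0 the AP-1 letters, 1 the cAMP response element (Errfi1) and 1 the E-box. Per1, Errfi1 and Tsku have 2 windows each, and those of Tsku overlap, so these are counts of windows and not of genes. The matches describe letters only.

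Genes of the matrix and the cell surface made up a further group of falls, with log2 fold changes between -0.94 and -2.28. P4ha1, the catalytic subunit of the prolyl hydroxylase that lets collagen fold, was at 240.3, 231 and 254 CPM in WTTR and at 106, 126 and 93.4 CPM in lacZTR (-1.15 ± 0.17, adjusted p = 0.0335). Gpc1, a heparan sulphate proteoglycan that binds growth factors, was at 244, 180.2 and 198 CPM in WTTR and at 94, 117 and 90.1 CPM in lacZTR (-1.05 ± 0.16, adjusted p = 0.0478). Vwa1, a matrix protein of the pericellular space, was at 48.8, 39 and 52.6 CPM in WTTR and at 21.6, 27.1 and 24.4 CPM in lacZTR (-0.94 ± 0.15, adjusted p = 0.0449). Of the lacZTR values of P4ha1, 2 lay within the range of the sham scars (98 to 140.4 CPM) and 1 below it, and those of Gpc1 and Vwa1 somewhat above it. Tsku, a small leucine-rich proteoglycan that binds TGF-β and Wnt components, was at 41.3, 40 and 55.9 CPM in WTTR and at 20, 20.7 and 17.7 CPM in lacZTR (-1.23 ± 0.17, adjusted p = 0.0257). Hapln4, which links hyaluronan to proteoglycans, was at 7.78, 7.64 and 12.2 CPM in WTTR and at 1.18, 2.46 and 2.02 CPM in lacZTR (-2.28 ± 0.32, adjusted p = 0.0299). Pvr, an adhesion molecule of the nectin family and a ligand of lymphocyte receptors, was at 41.1, 30.9 and 28.6 CPM in WTTR and at 10.8, 11.5 and 11.2 CPM in lacZTR (-1.59 ± 0.18, adjusted p = 0.00731). WTTR_1 was the highest library for Gpc1 and Pvr, and WTTR_3 for P4ha1, Vwa1, Tsku and Hapln4. Without WTTR_1 the adjusted p was 0.0809 for P4ha1 and 0.124 for Gpc1 and Vwa1, with the same signs.

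The other genes that fell have less settled roles in skin. Enc1, an actin-binding adaptor of a ubiquitin ligase, was at 112, 101 and 112 CPM in WTTR and at 54.7, 57.8 and 53.2 CPM in lacZTR (-0.97 ± 0.12, adjusted p = 0.0136). Stac2, an adaptor of voltage-gated calcium channels, was at 22.7, 16.6 and 18 CPM in WTTR and at 7.37, 9.53 and 8.56 CPM in lacZTR (-1.17 ± 0.18, adjusted p = 0.0449). Tmem252 was at 25.2, 14.8 and 17.6 CPM in WTTR and at 3.87, 5.99 and 4.41 CPM in lacZTR (-2.01 ± 0.28, adjusted p = 0.0257). The transcript 1700017B05Rik was at 94.9, 61 and 75.8 CPM in WTTR and at 15.4, 21.7 and 20 CPM in lacZTR (-2.02 ± 0.23, adjusted p = 0.00731). Enc1 varied least of these within each group, and Stac2, Tmem252 and 1700017B05Rik were highest in WTTR_1. Without that library the adjusted p was 0.124 for Stac2 and 0.0585 for Tmem252.

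The 2 genes that rose were both near the limit of detection in Tem1WT/WT scars with traction. Erdr1, on the X chromosome, was counted 2, 3 and 5 times in WTTR and 165, 406 and 191 times in lacZTR, or at 0.0476, 0.0662 and 0.103 CPM against 4.07, 7.74 and 3.6 CPM (log2 fold change 6.09 ± 0.59, adjusted p = 0.00322). It also differed in sham scars (4.63, adjusted p = 0.0211). Gm15230, a predicted transcript on the X chromosome, was counted 2, 7 and 6 times in WTTR and 44, 39 and 39 times in lacZTR (2.93 ± 0.44, adjusted p = 0.0355, and 0.0593 without WTTR_1). In sham scars it was counted 27, 34 and 23 times in WTSH and 44, 42 and 46 times in lacZSH. Both folds depend on the few counts in the WTTR libraries.

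**Figure D2:**
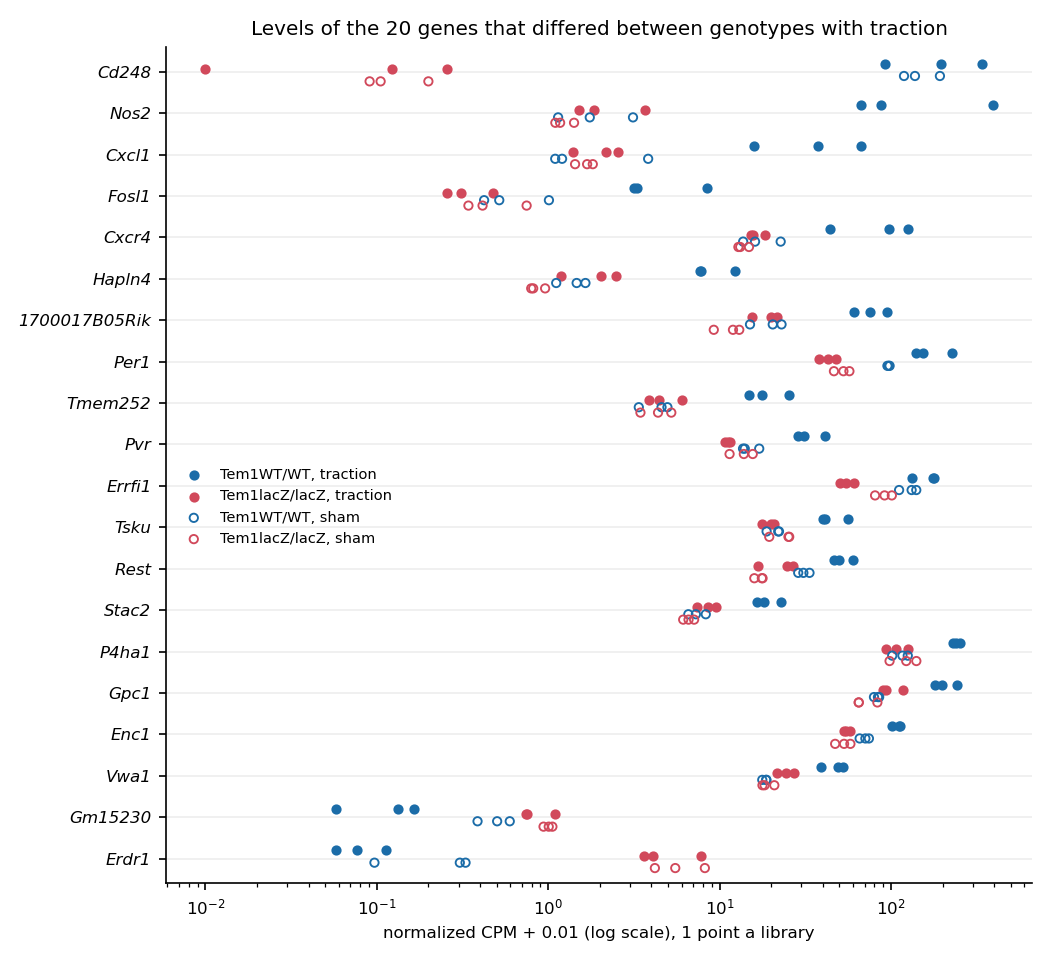
Normalized CPM plus 0.01 on a log axis, 1 point a library, for the 20 genes that differed between Tem1lacZ/lacZ (red) and Tem1WT/WT (blue) scars with traction, where filled points are traction and open points sham libraries. Filled red and filled blue points do not overlap for any gene, and the filled red points lie among the open ones for Cxcl1, with 1 just above them for Nos2.

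Some of these values carry a limit of the counting. The exons of Fosl1, Gpc1 and Vwa1 overlap those of genes on the opposite strand, by 1163 bases with Ccdc85b, 977 bases with Ankmy1, and 760 bases with Gm26840 plus 153 bases with Atad3aos. The strand setting of the counting is not given in the sources used here, so reads of these stretches cannot be assigned by strand from the files. Ccdc85b had a log2 fold change of -0.16, well short of Fosl1, and Atad3aos had one of 1.06, opposite to Vwa1. Values for Ankmy1 and for Gm26840, the longer overlap of Vwa1, are not given here. Fosl1 and Cd248 are also neighbours, 0.382 Mb apart on chromosome 19, in the part of the genome that would be inherited with the targeted allele. In sham scars Fosl1 differed by -0.39 between the genotypes (unadjusted p = 0.472). Whether the flanking sequence plays a part was not tested.

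The same genotype difference was read in the sham scars, whose libraries are not in the traction contrast. All 12 libraries were fitted together, however, so both tests share the estimate of each gene's spread. In sham scars 2 genes differed (0.0106%), Cd248 and Erdr1, and 2198 (11.7%) had an unadjusted p under 0.05. Of the 20 genes, 16 had the same sign in sham scars, 9 of them at an unadjusted p under 0.05, which is more often than in all genes. Because the spread is shared and Cd248 is the targeted gene, this count is a description. Besides Cd248, Erdr1 and Gm15230, these 9 were Per1 (-0.89), Rest (-0.86), 1700017B05Rik (-0.77), Hapln4 (-0.72), Errfi1 (-0.49) and Enc1 (-0.41). For Rest the sham difference was close to that with traction, with WTSH at 28.7, 33.4 and 30.8 CPM and lacZSH at 17.6, 15.9 and 17.8 CPM. For P4ha1, Tmem252, Tsku and Vwa1 the sign was the opposite in sham scars, with log2 fold changes of 0.07, 0.01, 0.16 and 0.05 that were within their errors.

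The test of the difference between the 2 genotype effects, the interaction of genotype and traction, called 0 genes in edgeR (smallest adjusted p = 0.548) and 1680 genes (8.91%) at an unadjusted p under 0.05, whereas DESeq2 called 69. Of the 20 genes, 17 had an unadjusted interaction p under 0.05, but they were chosen on the same traction libraries, so this count is a description. The smallest were those of Tsku (-1.39, unadjusted p = 0.000106), Pvr (-1.46, unadjusted p = 0.000109) and Nos2 (-5.57, unadjusted p = 0.000123). Pvr was at 14, 13.7 and 17 CPM in WTSH and at 13.8, 11.4 and 15.6 CPM in lacZSH, so its libraries overlapped in sham scars and not with traction. Cd248 itself had an interaction of -0.40 (unadjusted p = 0.713). By edgeR it was thus not shown for any gene that the genotype difference depended on traction.

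**Figure D3:**
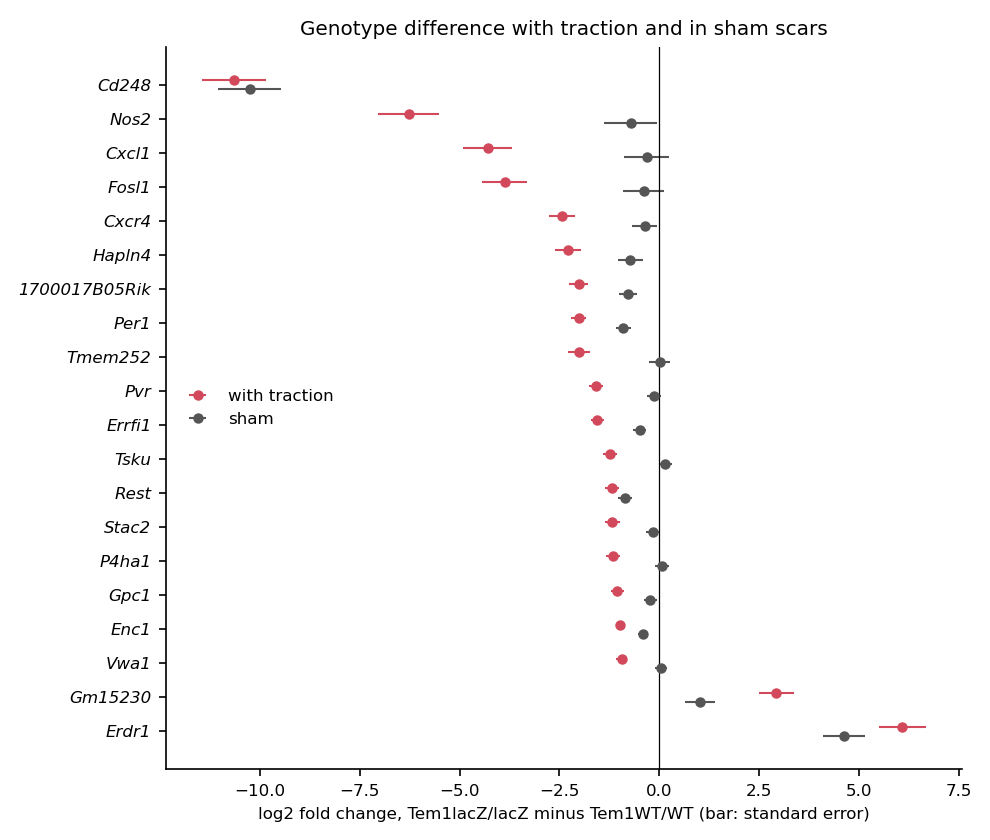
Log2 fold change between Tem1lacZ/lacZ and Tem1WT/WT scars (horizontal axis) of the 20 genes, with traction (red) and in sham scars (grey), where bars are standard errors. The points of Cd248 and Rest lie close together, Erdr1 was at 6.09 with traction and 4.63 in sham scars, and Nos2, Cxcl1 and Fosl1 were at -6.28, -4.30 and -3.87 with traction and at -0.71, -0.32 and -0.39 in sham scars.

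The structural collagens were lower in lacZTR as a group without passing the adjusted threshold. Of 10 fibrillar collagen genes tested, 9 were nominally lower and 0 higher, with a median log2 fold change of -1.03, and 4 had no overlap between the libraries. Col5a3, a chain of the collagen that starts fibrils, was at 468, 423 and 1042 CPM in WTTR and at 78.7, 102 and 204 CPM in lacZTR (-2.33 ± 0.53, adjusted p = 0.0845). Col5a1 was at 1263, 2139 and 3988 CPM against 460.2, 1172 and 1064 CPM (-1.45 ± 0.49, adjusted p = 0.117). Col1a1, the main chain of dermal collagen, was at 7601, 12293 and 23366 CPM in WTTR and at 2700.0, 8500.0 and 7091 CPM in lacZTR (-1.24 ± 0.49, adjusted p = 0.149), and Col3a1 was at 24137, 41364 and 56601 CPM against 12251, 26083 and 24501 CPM (-0.96 ± 0.41, adjusted p = 0.175). For both, WTTR_1 was the lowest wild-type library and overlapped with lacZTR, so that without it the median of the list was -1.27 and 8 members were nominally lower. Without WTTR_3, the highest library for both, the median was -0.71. In sham scars the median was -0.59.

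The enzymes that finish collagen were lower more evenly. Of 26 genes of hydroxylation and cross-linking, 25 were lower (24 with upper quartile normalization), 21 of them nominally and P4ha1 past the adjusted threshold, with a median of -0.88. Bmp1, which cuts the procollagen C-propeptide, was at 492, 438 and 745 CPM in WTTR and at 158, 276 and 208 CPM in lacZTR (-1.38 ± 0.28, adjusted p = 0.0834). Plod3, a lysyl hydroxylase, was at 140.2, 95.3 and 133 CPM against 54, 71.2 and 63.3 CPM (-0.97 ± 0.19, adjusted p = 0.0834), and Loxl3, a lysyl oxidase, at 66.6, 69.1 and 102 CPM against 28.4, 38.5 and 22.4 CPM (-1.42 ± 0.30, adjusted p = 0.0834). The exception was Pcolce2, at 0.67 ± 0.48. The median was -1.02 without WTTR_1, with 22 members nominally lower, -0.67 without WTTR_3, and -0.17 in sham scars.

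Matricellular proteins, proteoglycans and elastic fibre genes did not follow a single pattern. Of 18 matricellular genes and fibronectin, 8 were nominally lower (median -0.69). Ctgf, a target of TGF-β and YAP, missed the threshold narrowly and was at 104, 129 and 158 CPM in WTTR and at 54, 46.3 and 51.6 CPM in lacZTR (-1.37 ± 0.22, adjusted p = 0.0574). Tnc, the stretch-induced tenascin-C, was at 7503, 1049 and 2412 CPM against 673, 571 and 308 CPM (-2.82 ± 0.75, adjusted p = 0.0951), and Thbs1, which activates latent TGF-β, at 2905, 973 and 891 CPM against 245, 442 and 306 CPM (-2.26 ± 0.50, adjusted p = 0.0845). Both had their highest level in WTTR_1, without which they were at -1.71 and -1.46. Among 17 elastic fibre genes 6 were nominally lower (median -0.35, but -0.56 without WTTR_1, -0.14 without lacZTR_1 and -0.01 without WTTR_3), including Emilin1 (-1.68 ± 0.32, adjusted p = 0.0829) and Emilin2 (-2.10 ± 0.43, adjusted p = 0.0834). Tsku, which fell, was not on the list of small leucine-rich proteoglycans. Of the 13 on it, 1 was nominally lower and 1 nominally higher. Their median was 0.78, but 0.29 without WTTR_1 and -0.02 where every library had to hold 10 counts. Ecm2, the higher one, was at 21.4, 64 and 67.9 CPM in WTTR and at 83.3, 81.3 and 106 CPM in lacZTR (0.82 ± 0.35, adjusted p = 0.171). Bgn, the lower one, was at 2439, 2470.4 and 3407 CPM in WTTR and 1249, 2058 and 1601 CPM in lacZTR (-0.76 ± 0.23, adjusted p = 0.102).

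Proteases that remodel the matrix were lower with 1 library dominating several of them. Of 21 matrix metalloproteinases and inhibitors tested, 10 were nominally lower (median -0.72, and -1.16 without lacZTR_3). Mmp9, the gelatinase of neutrophils and macrophages, was at 757, 141 and 150.2 CPM in WTTR and at 17.3, 27 and 20.8 CPM in lacZTR (-4.01 ± 0.70, adjusted p = 0.0702), and Mmp13, a collagenase, at 1929, 154 and 138 CPM against 35.6, 45.1 and 16.8 CPM (-4.51 ± 1.02, adjusted p = 0.0845). Without WTTR_1 they were at -2.71 and -2.14, still with no overlap. Mmp2 and Mmp14, made by fibroblasts, did not lean on that library: Mmp2 was at 1229, 1499 and 1914 CPM against 462, 773 and 707 CPM (-1.26 ± 0.29, adjusted p = 0.0889). Of 9 plasminogen activation genes 8 were nominally lower with a median of -1.13, but without WTTR_1 this was 4 with a median of -0.50.

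Genes of the TGF-β pathway were nominally lower more often than the 15.1% of all genes, with 0 past the adjusted threshold. Of 22 ligands, receptors and Smads, 14 were nominally lower (median -0.59), with Tgfb1 at 188, 72.9 and 83.2 CPM in WTTR and at 25.6, 50.6 and 58.8 CPM in lacZTR (-1.35 ± 0.38, adjusted p = 0.0952) and Tgfb2 at 15.6, 25.7 and 37.2 CPM against 11.2, 15 and 10.7 CPM (-1.09 ± 0.30, adjusted p = 0.0951). Inhbb, a subunit of activin, was just outside the threshold, at 125, 95.8 and 115 CPM in WTTR and at 45.8, 62.7 and 49.7 CPM in lacZTR (-1.09 ± 0.17, adjusted p = 0.0502). Smad4, the shared partner of the receptor-regulated Smads, was at 102, 93.4 and 118 CPM against 61, 83.6 and 78.1 CPM (-0.49 ± 0.14, adjusted p = 0.0952). Of 27 response genes 16 were nominally lower (median -0.86), among them Snai1, a repressor of E-cadherin, at 47.2, 31 and 32.2 CPM against 9.44, 17.3 and 10.1 CPM (-1.58 ± 0.28, adjusted p = 0.0666). Without WTTR_1 the medians were -0.48 and -0.53 and the counts 11 and 13, and in sham scars the medians were -0.37 and -0.12.

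Adhesion genes were lower and contractile genes were mixed. Of 25 integrin and focal adhesion genes 15 were nominally lower and 1 nominally higher (median -0.64). Itgav, the chain that pairs into TGF-β-activating integrins, was at 199, 152 and 183 CPM in WTTR and at 69.5, 100.4 and 99.5 CPM in lacZTR (-0.99 ± 0.19, adjusted p = 0.0829). Itga5, of the fibronectin receptor, was at 138, 104 and 218 CPM against 34, 49.6 and 57.6 CPM (-1.70 ± 0.39, adjusted p = 0.0868), and Actn1, which ties actin to adhesions, at 293, 217 and 257 CPM against 131, 164 and 133 CPM (-0.84 ± 0.18, adjusted p = 0.0834). Among 20 contractile genes of myofibroblasts and smooth muscle, 5 were nominally lower (median -0.32, but -0.08 without WTTR_3 and -0.49 without lacZTR_2). Acta2, the smooth muscle actin of myofibroblasts, was at 165, 446 and 743 CPM in WTTR and at 369, 295 and 199 CPM in lacZTR, which overlap (-0.65 ± 0.44, adjusted p = 0.369). Without WTTR_1, its lowest wild-type library, 10 contractile genes were nominally lower, with a median of -0.56.

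**Figure D4:**
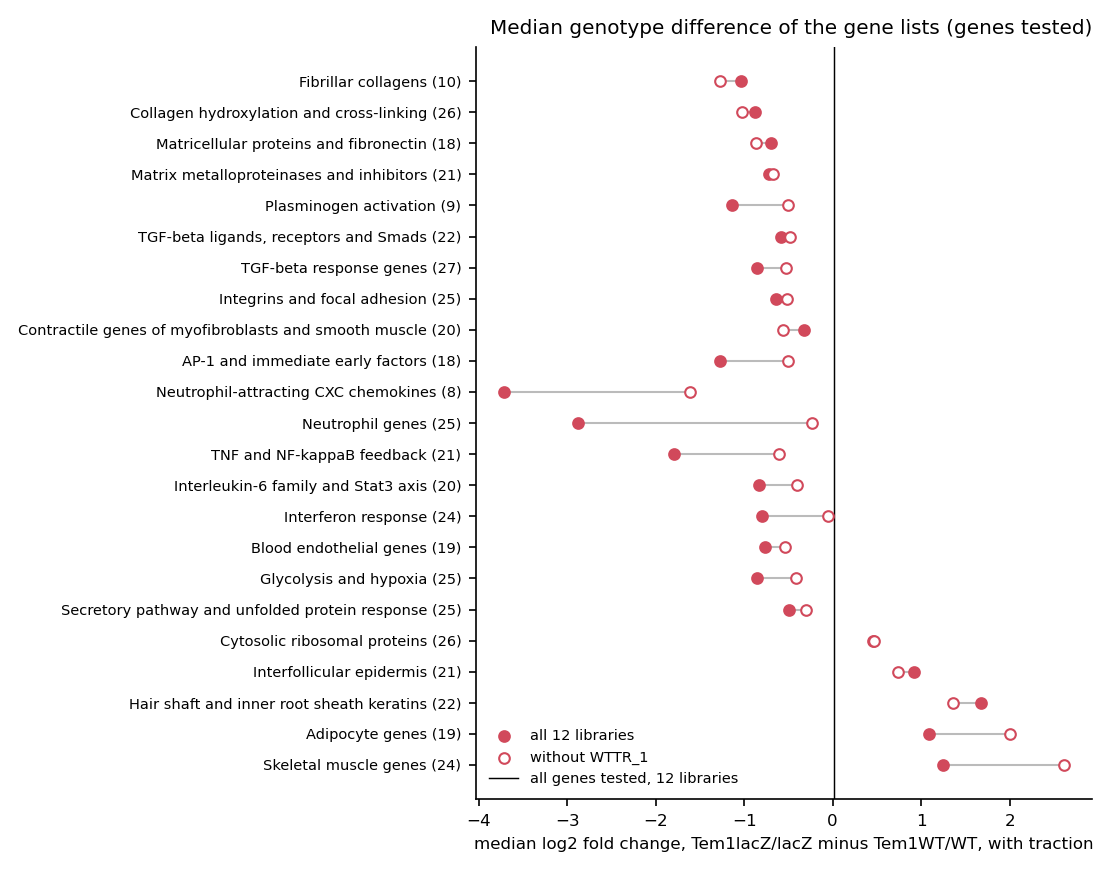
Median log2 fold change between Tem1lacZ/lacZ and Tem1WT/WT scars with traction for 23 gene lists (genes tested in brackets), with all 12 libraries in the fit (filled) and without WTTR_1 (open), beside the median of all genes (line). Matrix lists kept their medians near or below -0.5 without that library, whereas the medians of neutrophil and interferon genes came close to 0.

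Inflammatory genes were lower in lacZTR, with a large share of the difference in WTTR_1. Of 8 neutrophil-attracting CXC chemokines and receptors tested 7 were nominally lower, with a median of -3.71. Cxcl5 was at 352, 114 and 55.9 CPM in WTTR and at 23.9, 23.6 and 2.28 CPM in lacZTR (-3.39 ± 0.89, adjusted p = 0.0951), and Cxcl2 at 1807, 8.77 and 87.3 CPM against 10.3, 0.477 and 45.5 CPM (-5.08 ± 2.01, adjusted p = 0.149). Cxcl5, like Cxcl1, was apart in every library, while Cxcl2 was high in WTTR_1 and overlapped otherwise. Without WTTR_1 the median was -1.61 and 5 were nominally lower. Of 25 neutrophil genes 15 were nominally lower and 1 higher (median -2.87), but without WTTR_1 this was 4 and 1 with a median of -0.23. Csf3r, the G-CSF receptor, was at 954, 285 and 51.6 CPM in WTTR and at 39.7, 58.3 and 33.9 CPM in lacZTR (-3.29 ± 0.78, adjusted p = 0.0891).

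Feedback genes of TNF and NF-κB were the most uniform of the immune lists, with 20 of 21 nominally lower and a median of -1.79. Rela, the p65 subunit of NF-κB, was at 139, 69.8 and 79.1 CPM in WTTR and at 30.7, 47.1 and 53 CPM in lacZTR (-1.14 ± 0.27, adjusted p = 0.0891), and Nfkb2 at 163, 50.1 and 51.9 CPM against 21.8, 35.4 and 29.4 CPM (-1.61 ± 0.41, adjusted p = 0.0951). Tnfaip6, a hyaluronan-binding protein induced by TNF, was at 56.2, 48.2 and 86 CPM against 21.9, 10.6 and 20.6 CPM (-1.84 ± 0.46, adjusted p = 0.0928) and did not depend on WTTR_1. Tnf itself was at 101, 1.28 and 6.8 CPM in WTTR and at 2.19, 1.93 and 3.6 CPM in lacZTR, so that it was high in 1 library. Leaving out that library, the median of the list was -0.61 and 12 were nominally lower. Of 20 genes of the interleukin-6 family and the Stat3 axis 11 were nominally lower (median -0.83), with Il6 at 13.8, 8.99 and 1.58 CPM against 1.18, 0.706 and 0.377 CPM (-3.43 ± 0.85, adjusted p = 0.0922) and Socs3, its feedback inhibitor, at 1031, 131 and 79.3 CPM against 32, 68 and 34.7 CPM (-3.20 ± 0.82, adjusted p = 0.0951). Leaving out WTTR_1 gave a median of -0.41 with 6 nominally lower.

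The interferon response showed how far 1 scar can set a median. Of 24 genes 7 were nominally lower with a median of -0.80, and without WTTR_1 0 were nominally lower or higher and the median was -0.05. Irf1 was at 859, 54.4 and 59.1 CPM in WTTR and at 38.9, 49.9 and 74.7 CPM in lacZTR, and 2 of the 3 wild-type libraries lay inside the range of the lacZTR libraries. Of 15 interleukin-1 family genes 8 were nominally lower and 3 nominally higher with a median of -1.23, and without WTTR_1 this was 3 and 2 with a median of 0.17. Of 26 monocyte and macrophage genes 5 were nominally lower (median -0.31, but -0.08 without lacZTR_1 and -0.68 without lacZTR_3), and 0 without WTTR_1.

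**Figure D5:**
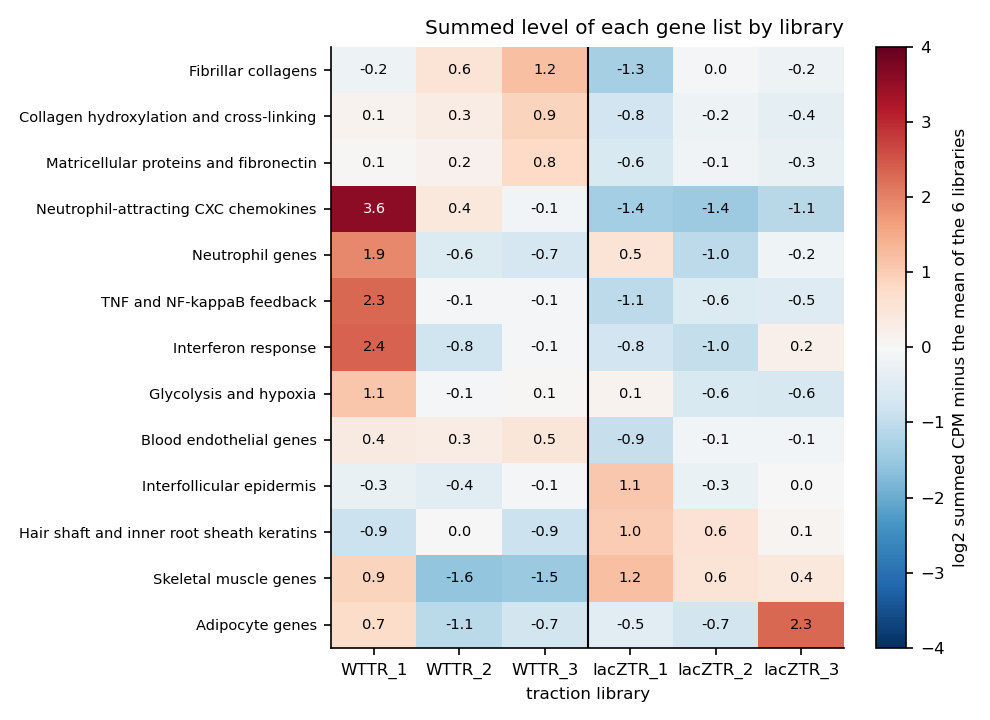
Summed CPM of 13 gene lists in the 6 traction libraries, on a log2 scale with the mean of the 6 set to 0 (colour and number). WTTR_1 is the highest library for the chemokine, neutrophil, NF-κB and interferon lists, at 3.59 for the chemokines, whereas WTTR_3 is highest for the fibrillar collagens at 1.20, and lacZTR_3 for adipocyte genes at 2.30.

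Immediate early factors were lower beyond Fosl1, with 14 of 18 (Fosl1 included) nominally lower, 1 nominally higher and a median of -1.27. Fosl2 was at 518, 252 and 302 CPM in WTTR and at 106, 172 and 132 CPM in lacZTR (-1.39 ± 0.27, adjusted p = 0.0829), and Jund at 228, 166 and 233 CPM against 107, 120.3 and 138 CPM (-0.78 ± 0.16, adjusted p = 0.0834). Fos, the gene that is induced within minutes, was at 66.7, 108 and 36.8 CPM in WTTR and at 16.2, 43.3 and 30 CPM in lacZTR, which overlap (-1.24 ± 0.60, adjusted p = 0.216). Nr4a1, an orphan nuclear receptor, was at 70.9, 24.3 and 18.8 CPM against 5.67, 8.16 and 9.56 CPM (-2.28 ± 0.48, adjusted p = 0.0834). Without WTTR_1 the median was -0.50 and 9 were nominally lower.

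Vessel and stromal markers were lower by a moderate amount. All 19 blood endothelial genes had a negative log2 fold change (17 with upper quartile normalization), and 10 were nominally lower (median -0.77, -0.54 without WTTR_1 and -0.47 without lacZTR_1). Cdh5, the VE-cadherin of endothelial junctions, was at 249.9, 266 and 279 CPM in WTTR and at 72.7, 170.1 and 159 CPM in lacZTR (-0.99 ± 0.34, adjusted p = 0.119), and Ets1, an endothelial transcription factor, at 155, 100.4 and 98.8 CPM against 37.7, 64.5 and 57.4 CPM (-1.15 ± 0.24, adjusted p = 0.0834). Of 11 pericyte genes 3 were nominally lower (median -0.60, but -0.39 without lacZTR_1 and -0.26 without WTTR_3). Pdgfrb, which marks pericytes and activated fibroblasts, was at 255, 151 and 203 CPM in WTTR and at 55.4, 118 and 102 CPM in lacZTR (-1.15 ± 0.28, adjusted p = 0.0921). Of 21 fibroblast genes 10 were nominally lower (median -0.64, -0.57 without WTTR_1 and -0.21 without WTTR_3), and 0 nominally higher. Among the relatives of TEM1 and its matrix ligands, 9 of 11 were nominally lower, Cd248 included. Cd93, a lectin of the same family on endothelium, was at 127, 228 and 239.5 CPM against 62.4, 90.7 and 117 CPM (-1.14 ± 0.38, adjusted p = 0.116), and Fn1, fibronectin, at 1768, 2943 and 5791 CPM against 638, 1501 and 1494 CPM (-1.53 ± 0.55, adjusted p = 0.126). All 11, the targeted Cd248 among them, had a negative log2 fold change under each of the 3 normalizations tried. In lacZTR_1 the summed levels of endothelial, fibroblast and collagen genes were the lowest of the 6 libraries. The fibroblast list holds Col1a1, Col1a2 and Col3a1, so its sum and that of the fibrillar collagens are not separate.

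Genes of glycolysis, hypoxia and protein secretion were lower as well. Of 25 glycolysis and hypoxia genes 24 were lower, 14 nominally (median -0.85, against 0.19 in sham scars). Slc16a3, the exporter of lactate, was at 278, 70.5 and 94.1 CPM in WTTR and at 27.8, 19.4 and 12.7 CPM in lacZTR (-2.89 ± 0.51, adjusted p = 0.0766), Vegfa at 116, 85.1 and 66.8 CPM against 33, 34.8 and 33.1 CPM (-1.41 ± 0.28, adjusted p = 0.0834), and Hk2, a hexokinase, at 234, 122 and 105 CPM against 63.1, 58 and 68.8 CPM (-1.28 ± 0.29, adjusted p = 0.0845). When WTTR_1 was left out, 8 were nominally lower and the median was -0.42. All 25 genes of the secretory pathway and the unfolded protein response were lower (24 with upper quartile normalization), 18 of them nominally, with a median of -0.49 (0.21 in sham scars). Sec61a1, the channel into the endoplasmic reticulum, was at 289.8, 255 and 350.4 CPM against 177, 185 and 177 CPM (-0.73 ± 0.14, adjusted p = 0.0829). Without WTTR_1, 9 were nominally lower with a median of -0.30.

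Hair keratin and epidermal genes went the other way, and so did some other epithelial lists. Medians were 0.71 for 20 hair follicle transcription factors and signals, 0.96 for 11 melanocyte genes and 0.59 for 13 sebaceous gland genes. Of these, 5, 1 and 4 were nominally higher and 0, 0 and 1 nominally lower. Without WTTR_1, 3, 0 and 2 were nominally higher. Wound-edge and hair follicle stem cell genes did not go that way. All 22 hair shaft and inner root sheath keratin genes tested were higher in lacZTR, 15 of them nominally, with a median of 1.68, and in 20 the libraries did not overlap. Krt34, a hair cuticle and cortex keratin, was at 2.95, 9.45 and 6.64 CPM in WTTR and at 49.3, 18.2 and 19.1 CPM in lacZTR (2.18 ± 0.60, adjusted p = 0.0951). Krt86 was at 15.6, 36.1 and 20 CPM against 144, 58.2 and 64.5 CPM (1.90 ± 0.55, adjusted p = 0.096), and Krt71, of the inner root sheath, at 1437, 2313 and 1399.5 CPM against 5226, 3525 and 2622 CPM (1.14 ± 0.60, adjusted p = 0.247). The levels in the sham scars of both genotypes were spread widely, with Krt71 at 4286, 8369.6 and 5223 CPM in WTSH and at 1047, 8585 and 4524 CPM in lacZSH, and the median of the list there was -0.20. Without WTTR_1 the median was 1.36 and 8 were nominally higher. Hair keratins are made in growing follicles only, and neither the phase of the hair cycle nor the share of normal skin in each sample is known from the labels. Their part in the difference was not tested.

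Genes of the epidermis between the follicles were higher too, with 8 of 21 nominally higher and a median of 0.91 (0.74 without WTTR_1). Ivl, involucrin of the cornified envelope, was at 40.4, 191 and 130.5 CPM in WTTR and at 574, 242 and 403 CPM in lacZTR (1.75 ± 0.48, adjusted p = 0.0951), and Casp14, a protease of cornification, at 123, 336 and 263 CPM against 765, 508 and 480.4 CPM (1.28 ± 0.41, adjusted p = 0.106). For both, WTTR_1 was the lowest library and lacZTR_1 the highest. Of 19 wound-edge and stress keratinocyte genes, in contrast, 7 were nominally lower and 2 nominally higher (median -0.14), and this median was 0.35 without WTTR_1 and -1.47 without lacZTR_1. Of 12 hair follicle stem cell genes 2 were nominally lower and 2 nominally higher, with a median of -0.0017. Ribosomal protein genes were higher by a small, even amount, with all 26 above 0 and 9 nominally higher (median 0.46, and 0.24 without lacZTR_1), and the median was 0.50 in sham scars as well. Rps23 was at 383, 426 and 392 CPM in WTTR and at 849, 472 and 571 CPM in lacZTR (0.66 ± 0.24, adjusted p = 0.128), so that lacZTR_1 was again the highest.

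Muscle and fat genes differed widely between libraries of the same group. All 24 skeletal muscle genes had a positive log2 fold change (23 with the size factors of DESeq2; median 1.25, and -1.32 in sham scars), but 3 were nominally higher, which is near the 11.1% of all genes. Without WTTR_1 this was 16 with a median of 2.61. Mylpf, a fast myosin light chain, was at 109, 26.4 and 31.4 CPM in WTTR and at 351, 93.4 and 127 CPM in lacZTR (1.77 ± 0.72, adjusted p = 0.158). The summed level of the list was 3713, 666 and 715 CPM in WTTR, 4598, 2955 and 2678 CPM in lacZTR, and from 1987 to 22326 CPM in the sham scars. The muscle layer under the skin of mice can be taken along in excision, and its part in other differences was not tested. All 19 adipocyte genes had a positive log2 fold change too (median 1.08, and 2.00 without WTTR_1), but 1 was nominally higher, fewer than the background gives, and the summed level was 7684 CPM in lacZTR_3 and 1127 and 929 CPM in the other lacZTR libraries, against 2569.7, 741 and 926 CPM in WTTR. Without lacZTR_3 the median of the adipocyte genes was -0.74.

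The genes that the study named for these scars were chosen from the same libraries and are therefore no independent evidence of direction. Of its 17 profibrotic genes, 16 were nominally lower and P4ha1 was past the adjusted threshold (median -0.89, and -0.85 without WTTR_1). Of its 16 inflammatory genes, 15 were nominally lower and Nos2 was past the threshold (median -1.39). Without WTTR_1 the count of inflammatory genes was 7 and the median -0.75. Stat3 was at 576, 264 and 242 CPM in WTTR and at 133, 218 and 171 CPM in lacZTR (-1.05 ± 0.33, adjusted p = 0.103), and Hif1a at 1065, 544 and 441 CPM against 428, 366 and 243 CPM (-0.98 ± 0.34, adjusted p = 0.119). Of its 21 fatty acid and hair follicle genes, 9 were nominally higher (median 0.80), and 5 without WTTR_1. Lhx2, a transcription factor of hair follicle progenitors, was at 8.68, 12.9 and 9.04 CPM in WTTR and at 16, 27.2 and 17.8 CPM in lacZTR (1.00 ± 0.33, adjusted p = 0.111).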

How the data were processed

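RNA was extracted from the scars and made into stranded mRNA libraries with a TruSeq kit. The authors trimmed the reads with fastp 0.20.0, aligned them to GRCm38 (mm10) with HISAT2 2.1.0 and deposited raw counts of reads per gene from featureCounts 2.0.0. The annotation, the strand setting and the treatment of reads with several alignments are not given in the sources used here. All 12 libraries were fitted together in edgeR 4.0.16 (R 4.3.3) with 4 group means, after filterByExpr and TMM normalization, by robust quasi-likelihood. Tests were two-sided with Benjamini-Hochberg adjustment at 0.05. DESeq2 1.42.0, limma-voom (limma 3.58.1), other filters and normalizations, the replicate number as a block and leaving out each library were alternatives. Scripts were tested on simulated data. The gene lists, the comparison and the rule for naming genes (all genes past the threshold, the genes the study named, and from each list described the members with the smallest p, the first 2 listed and the largest opposite change) were chosen with earlier results of these data known, and which of these genes are printed was decided after their values were seen. A gene that this rule names is not reported here. Counts per list without WTTR_1 were added after seeing the data. Figures were drawn with matplotlib 3.10.9. The study's other assays were not analysed here.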

Additional observations from a re-analysis of the deposited data

How the results depend on the processing

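The 20 genes kept their direction under each alternative that tested them, but the count past the threshold did not hold. It was 2309 with DESeq2's Wald test (1441 lower), 0 with only the 6 traction libraries in the fit (smallest adjusted p = 0.154, 2969 genes at an unadjusted p under 0.05), 6 at an adjusted p under 0.01, and from 3 (without lacZTR_2 or lacZTR_3) to 1421 (without WTTR_2, 738 lower) when 1 library was left out. All 20 were among the 1421 and among the 2309. The count also moved by over 1.5 times without lacZTR_1 (4), WTSH_2 (7), WTSH_3 (10), lacZSH_1 (12), lacZSH_2 (12) and lacZSH_3 (9). Without WTTR_1 it was 14, of which 11 were among the 20, and with upper quartile normalization 14, with 85.7% lower in place of 90%, 100% with limma-voom and 62.4% with DESeq2. In sham scars the count was 0 where every library had to hold 10 counts (which leaves out Cd248 and Erdr1), 27 with DESeq2, 1 with limma-voom, 1 with only the 6 sham libraries and from 1 to 2 with 1 library left out. The interaction gave 69 with DESeq2 (47 lower) and from 0 to 31 with 1 library left out, the 31 being without WTTR_2 (30 higher). The cause of these moves was not tested.

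Same-numbered libraries of the 2 traction groups share only a number: their deviations from the group means correlated by 0.0205, 0.103 and 0.0968. With the replicate number as a block, 15 genes were past the threshold (12 lower), 10 of them among the 20, with 2 in sham scars and 0 for the interaction. Of the gene lists described, the medians of the interleukin-1 family, adipocyte, clock, wound-edge keratinocyte and hair follicle stem cell genes changed sign when 1 library was left out. With counts between 42449173 and 54227680 per traction library, depth limits mainly Erdr1, Gm15230 and Fosl1, which are near 0 in 1 group. Intervals and errors cover the spread between libraries only.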

Other observations

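Red cell genes were lower in lacZTR in a way that did not rest on WTTR_1. Of 7 genes tested 5 were nominally lower (median -0.96, -0.81 without WTTR_1, and 0.23 in sham scars). Hbb-bs, an adult beta globin, was at 97.3, 103 and 85.6 CPM in WTTR and at 44.5, 34.6 and 58.8 CPM in lacZTR (-1.05 ± 0.18, adjusted p = 0.0644 in edgeR), and Alas2, the first enzyme of haem synthesis in red cells, at 26.2, 22.9 and 18.5 CPM against 11.9, 10.5 and 12.2 CPM (-0.96 ± 0.18, adjusted p = 0.0808). The amount of blood kept in each sample is not known from the labels.

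Targets of glucocorticoids were mostly lower, with 12 of 14 below 0 and 2 above. Of 14 genes, 6 were nominally lower, among them Per1 and Errfi1 past the adjusted threshold, and 1 was nominally higher (median -0.64, and -0.17 without WTTR_1). Cebpd was at 147, 76.2 and 69.7 CPM in WTTR and at 21.6, 39 and 27.5 CPM in lacZTR (-1.73 ± 0.30, adjusted p = 0.0648). Zbtb16 was the one that was higher, at 14.4, 5.96 and 10.7 CPM against 33.9, 32.6 and 42.2 CPM (1.81 ± 0.52, adjusted p = 0.0963). Among 19 clock genes, of which Per1 is a member, 5 were nominally lower and 1 nominally higher with a median of 0.05, and without WTTR_1 this was 3 and 2 with a median of -0.09.

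Of 12 mast cell genes 9 were higher, 3 of them nominally, and 3 were lower, 1 of them nominally. Without WTTR_1, 6 were nominally higher. Ms4a2, a chain of the IgE receptor, was at 1.74, 2.14 and 1.01 CPM in WTTR and at 4.71, 3.7 and 5.17 CPM in lacZTR (1.47 ± 0.31, adjusted p = 0.0834). Hdc, which makes histamine and is also active in neutrophils, was at 1009, 16.6 and 45.3 CPM against 15.3, 13.3 and 29.5 CPM. Of 100 genes tested within 1 Mb of Cd248 on chromosome 19, 24 were nominally lower and 6 nominally higher, or 30% in all against 26.1% of all genes tested, with a median of -0.12. Fosl1 was the gene among them past the adjusted threshold.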
